A study of Mus musculus with 12 samples.

Results

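The miR-106b, miR-93 and miR-25 hairpins lie together in an intron of Mcm7, a gene for a subunit of the replicative helicase. Each hairpin gives a 5p and a 3p arm, and the 6 arms were taken by name from the 1042 miRNAs of the table. Small RNA libraries had been made from 5 mouse cell types. They comprised 3 libraries of mouse embryonic fibroblasts (MEFs, C57B6/129SvJae F1), 3 of the embryonic stem cell (ESC) line E14 (129/ola), and 2 of each of 3 reprogrammed types, iPSCs, NT-iPSCs and NT-ESCs (all C57B6/129SvJae F1). To make the iPSCs, the factors c-Myc, Klf4, Oct4 and Sox2 were delivered to MEFs by lentivirus and switched on with dox. Nuclear transfer gave the NT-ESCs from MEFs and the NT-iPSCs from an iPSC nucleus, and all reprogrammed cells go back to the same MEFs. Libraries of a type were batches of RNA from 1 line, so the limma p-values below measure the spread between batches and not between lines. The exact permutation tests below treat each library as a unit, although batches of a line are not independent lines. Where types are pooled, their p-values and the SDs mix the spread between lines with that between batches. The ESCs and reprogrammed cells were grown on irradiated MEF feeders, whose RNA can enter these libraries. ESCs also differ from all other cells in strain, which cannot be told apart from cell type.

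The arm of a hairpin that is loaded into the silencing complex more often is usually the more abundant one, and its seed, bases 2 to 8, pairs with target mRNAs. Here the leading arms in ESCs were miR-106b-5p, miR-93-5p and miR-25-3p. The first 2 carry the seed of the miR-17 family, whose targets include the cell cycle inhibitor Cdkn1a, and miR-25-3p carries the seed of the miR-92 family, whose targets include the pro-apoptotic gene Bcl2l11. miR-106b and miR-93 are known to aid the reprogramming of fibroblasts. The cluster is a paralog of the miR-17 to miR-92a cluster and of the miR-106a to miR-363 cluster on the X chromosome.

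In the GRCm38.p6 assembly all 3 hairpins are on the minus strand of chromosome 5, within 498 bases. Mir106b is at chr5:138165737-138165818, Mir93 at chr5:138165523-138165610 and Mir25 at chr5:138165321-138165404. They lie in that order in intron 13 of the 15-exon transcript Mcm7-201 (intron chr5:138165162-138165909, gene chr5:138164583-138172422), and a retained-intron transcript of Mcm7 has an exon over Mir93 and Mir25. The authors' notes name the mm8 build, but their table holds no coordinates, so these positions come from the RefSeq and GENCODE annotation alone. The mature sequences of all 6 arms are shown because their seeds divide the cluster. They are from RefSeq, 5′ to 3′, with the seed in capitals.
mmu-miR-106b-5p: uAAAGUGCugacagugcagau
mmu-miR-106b-3p: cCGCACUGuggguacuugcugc
mmu-miR-93-5p: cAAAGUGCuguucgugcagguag
mmu-miR-93-3p: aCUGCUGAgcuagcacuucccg
mmu-miR-25-5p: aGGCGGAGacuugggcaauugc
mmu-miR-25-3p: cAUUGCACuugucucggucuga

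miR-106b-5p and miR-93-5p share a seed, while the other 4 arms each have their own. Their lengths are 21 to 23 bases and their GC contents 42.9% to 63.6%. Among the other mature miRNAs of the table with a RefSeq sequence, the nearest to each leading arm differs from it at 3 positions in the best ungapped overlay, namely miR-106a-5p for miR-106b-5p, miR-20b-5p for miR-93-5p and miR-92a-3p for miR-25-3p. How reads fitting several of these miRNAs were assigned is not given in the sources used here.

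Recovered miRNA reads numbered 4863365 to 8608689 per library. At that depth 3 reads stand for a CPM (miRNA reads scaled to the library total) of 0.348 to 0.617, and all 6 arms were above that level in every library. That limit takes in counting error alone, as reads copied by PCR are not separate molecules. The pluripotent marker miRNAs of the miR-290 and miR-302 clusters (24 arms) summed to 0.9 to 12.9 CPM in MEFs. Their sum was 101591 to 121621 CPM in ESCs and 135180 to 208217 CPM in the reprogrammed libraries. The 6 fibroblast markers (miR-199a, miR-199b, miR-214, miR-143 and miR-145 arms) had reads in every library. They summed to 57681 to 88277 CPM in MEFs and 38496 to 42728 in ESCs. On the deposited log2 scale each of the 6 was called higher in MEFs than in ESCs (differences 1.47 to 4.29), as were 39.1% of all miRNAs. In iPSCs the sum was 11313 to 12643 CPM, against 31958 to 37404 in NT-ESCs and NT-iPSCs, and its part in the results below was not tested. Against ESCs 3 of the 6 markers were higher and 3 lower in NT-ESCs (log2 differences -3.87 to 4.18), likewise in NT-iPSCs (-3.60 to 4.48), while in iPSCs 1 was higher and 3 were lower (-5.20 to 2.33). All 6 reprogrammed libraries also stood apart from all ESC and MEF libraries in the deposited size factors (1.14 to 1.44 against 0.762 to 0.999), in the number of miRNAs with reads (805 to 818 against 740 to 787) and, in the study's account of read cleaning, in the shares of reads set aside for adaptor faults. These differences between libraries cannot be told apart from cell type.

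The make-up of the cluster differed between reprogrammed cells and the other 2 types. In ESCs most of its reads were miR-93-5p, which made up 71.5% ± 1.11 (SD, n = 3) of the reads of the 6 arms, followed by miR-106b-5p with 20.8% ± 0.962. miR-25-3p contributed 5.48% ± 0.829. MEFs had nearly the same order, with 72.2% ± 0.0273 (SD, n = 3) miR-93-5p, 15.9% ± 0.388 miR-106b-5p and 9.26% ± 0.308 miR-25-3p. In reprogrammed cells miR-25-3p led with 81.6% ± 2.45 (SD, n = 6). miR-25-5p contributed a further 7.99% ± 1.32, miR-93-5p fell to 7.34% ± 1.20 and miR-106b-5p to 1.92% ± 0.367. The plot of the make-up by library shows the same shift in each of the 6 reprogrammed libraries, where miR-25-3p took 76.9% to 83.4%.

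**Figure D1:**
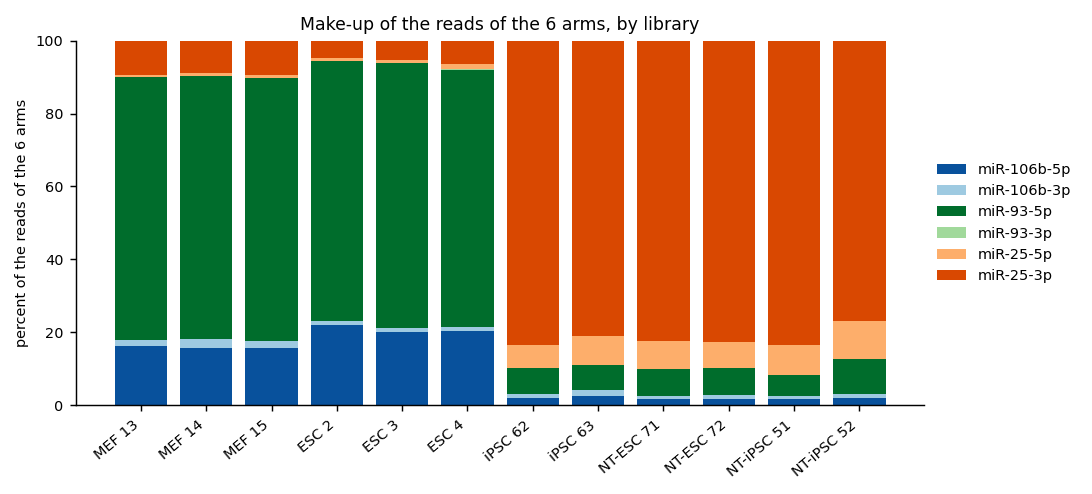
Stacked bars give, for each of the 12 libraries, the percent of the reads of the 6 arms that each arm took. miR-93-5p (dark green) takes over 70% of the bar in the MEF and ESC libraries, and miR-25-3p (dark orange) takes 76.9% to 83.4% in the reprogrammed libraries.

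Of the 6 arms, mmu-miR-25-3p had the largest difference between reprogrammed cells and ESCs. Its level was 1178, 1330 and 1518 CPM in the ESC libraries and 472, 368 and 400 CPM in the MEF libraries. The pair of iPSC libraries had 31677 and 29064 CPM, the NT-ESCs 30873 and 32146, and the NT-iPSCs 22587 and 17289. No reprogrammed library overlapped the ESCs or MEFs, and ESCs lay above MEFs in every library. Ranked by reads among all miRNAs of a library, miR-25-3p stood at 79 to 83 in ESCs, at 97 to 114 in MEFs and at 8 to 16 in reprogrammed cells. On the deposited log2 scale (a variance stabilized transformation, VST) it was 4.20 higher in reprogrammed cells than in ESCs (standard error 0.15, limma adjusted p = 3.5e-10) and 5.01 higher than in MEFs (standard error 0.15, adjusted p = 4.5e-11). Among the reprogrammed types both NT-iPSC libraries had the lowest CPM. On the deposited scale no difference between these types passed the test. With total miRNA reads as library size, NT-iPSCs were lower than iPSCs (-0.62, limma adjusted p = 0.020) and NT-ESCs (-0.67, adjusted p = 0.034). On the deposited scale these differences were -0.07 and -0.49, so their sizes and calls depended on the scaling.

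mmu-miR-25-5p, the less abundant arm of the same hairpin, moved the same way. It measured 205, 231 and 351 CPM in ESCs and 21.4, 32.3 and 34.5 CPM in MEFs. The reprogrammed libraries ran from 2226 CPM in an NT-iPSC library to 2874 CPM in an NT-ESC library. The 3 sets of libraries did not overlap. It was 3.22 higher on the log2 scale in reprogrammed cells than in ESCs (standard error 0.18, limma adjusted p = 1.2e-08) and 5.48 higher than in MEFs (standard error 0.18, adjusted p = 7.7e-11).

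mmu-miR-93-5p, the most abundant arm in ESCs, went in the opposite direction. It measured 17499, 18524 and 16718 CPM in ESCs and 3586, 2979 and 3089 CPM in MEFs. NT-iPSCs had 1569 and 2127 CPM, iPSCs 2653 and 2488, and NT-ESCs 2793 and 2887. Every reprogrammed library was thus below every MEF library, which in turn were all below the ESCs. Its rank was 13 to 14 in ESCs, 39 in MEFs and 53 to 73 in reprogrammed cells. The log2 difference was -3.01 between reprogrammed cells and ESCs (standard error 0.14, limma adjusted p = 2.5e-09) and -1.44 between reprogrammed cells and MEFs (standard error 0.14, adjusted p = 1.2e-06). The latter was -0.44 with total miRNA reads as library size (standard error 0.12, adjusted p = 0.0043).

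mmu-miR-106b-5p, which has the same seed, followed miR-93-5p. Its level was 5370, 5119 and 4841 CPM in ESCs and 812, 650 and 669 CPM in MEFs. NT-iPSCs had 434 and 442 CPM, NT-ESCs 649 and 673, and iPSCs 719 and 941. ESCs stood above all other libraries, whereas MEFs and reprogrammed cells overlapped on the CPM scale. The log2 difference from ESCs was -3.16 in reprogrammed cells (standard error 0.16, limma adjusted p = 4.0e-09). From MEFs it was -1.20 (adjusted p = 1.7e-05), but only -0.19 with total miRNA reads as library size (adjusted p = 0.15). With TMM-type and upper quartile scaling it was -0.855 and -1.62. The size and the call against MEFs thus depended on the scaling, while the sign did not.

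Between reprogrammed cells and ESCs the passenger arms of these 2 hairpins differed less than their 5p arms. Against MEFs with total miRNA reads as library size they differed more. There miR-106b-3p and miR-93-3p had 2.09 and 1.56, beside -0.19 and -0.44 for miR-106b-5p and miR-93-5p. miR-106b-3p had 262 to 273 CPM in ESCs, 73.3 to 93.3 in MEFs and 263 to 541 in reprogrammed cells, with the highest values in the iPSC libraries. Its difference between reprogrammed cells and ESCs was 0.30 on the log2 scale (standard error 0.12, limma adjusted p = 0.042). That call was lost with TMM-type scaling (0.14, adjusted p = 0.36) and without any 1 of the ESC libraries (adjusted p = 0.073 to 0.12) or without iPSC replicate 63, NT-ESC replicate 72 or either NT-iPSC library (adjusted p = 0.057 to 0.10). miR-93-3p was scarce, with 13 to 53 reads per library, 7.5 to 10.7 CPM in ESCs, 1.5 to 2.3 in MEFs and 3.7 to 8.3 in reprogrammed cells. It was 0.70 lower than in ESCs (difference -0.70, standard error 0.26, adjusted p = 0.025), a call lost without ESC replicate 2, NT-ESC replicate 71 or NT-iPSC replicate 52 and under upper quartile scaling (adjusted p = 0.053 to 0.10).

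**Figure D2:**
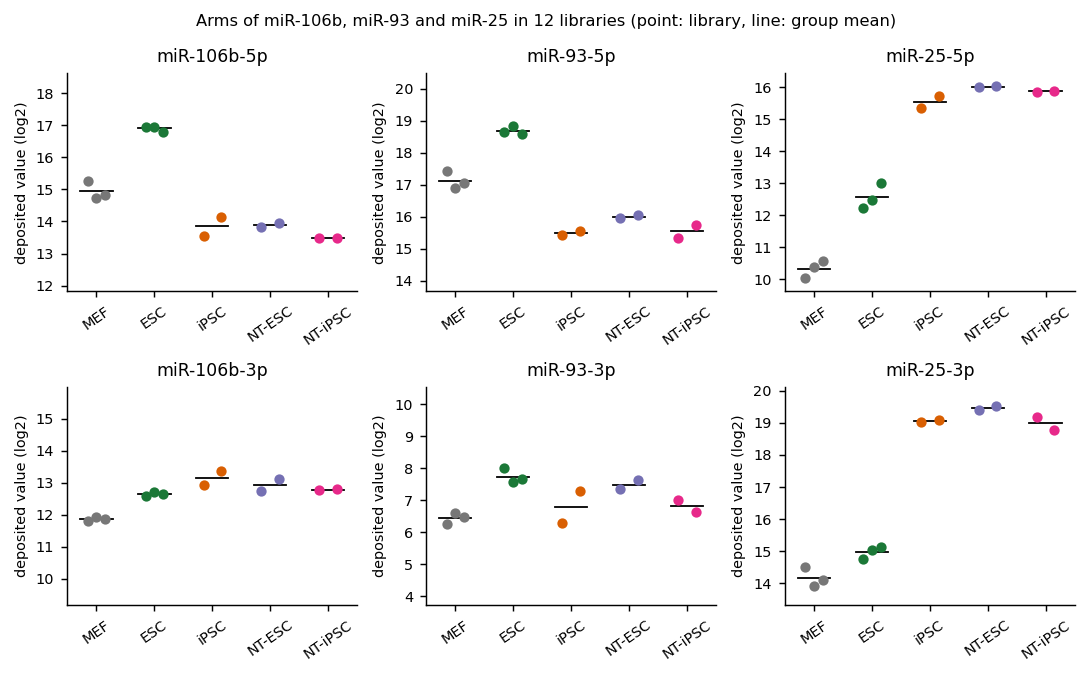
Each panel plots the deposited log2 value of an arm (y axis, each panel spanning the same number of log2 units) in the 12 libraries, grouped by cell type, with points for libraries and a line for the group mean. Both miR-25 arms are highest in the reprogrammed cells, and miR-106b-5p and miR-93-5p are highest in the ESCs.

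Counted over the cluster, 3 arms were above and 3 below their ESC level in reprogrammed cells, and of all 732 miRNAs tested 82.0% were called in this comparison, 44.0% as higher and 38.0% as lower. The median difference of the arms was -0.20, beside 0.24 over all miRNAs, whose differences ran from -8.55 to 7.69. The share called in the cluster is thus to be read against a background in which most miRNAs were called, and the sizes of the differences against that range. Each type was also set against ESCs on its own. In iPSCs 3 arms were higher and 3 lower, where 75.8% of all miRNAs were called (39.8% higher, 36.1% lower). NT-ESCs had 2 higher and 2 lower, with the same shares of all miRNAs called (75.8%, 39.8% and 36.1%). NT-iPSCs had 2 higher and 3 lower (77.6%, 41.1% and 36.5%). The arms that did not pass were miR-106b-3p and miR-93-3p in NT-ESCs (differences 0.28 and -0.26, limma adjusted p = 0.13 and 0.49) and miR-106b-3p in NT-iPSCs (0.13, adjusted p = 0.47). Under upper quartile scaling miR-106b-3p passed as higher in both (NT-ESCs 0.52, adjusted p = 0.0077, and NT-iPSCs 0.37, adjusted p = 0.038). Of those that passed, miR-106b-3p in iPSCs was lost without iPSC replicate 63 or with TMM-type scaling (adjusted p = 0.16 and 0.099). miR-93-3p in iPSCs was lost without iPSC replicate 62 or ESC replicate 2, with total reads as library size and with only the groups compared (adjusted p = 0.063 to 0.27). In NT-iPSCs it was lost without NT-iPSC replicate 52 or ESC replicate 2 and under upper quartile scaling (adjusted p = 0.076 to 0.15). For miR-25-3p the difference from ESCs was 4.50 in NT-ESCs, 4.09 in iPSCs and 4.01 in NT-iPSCs (standard error 0.20 each). For miR-93-5p the values were -2.69, -3.19 and -3.14 (standard error 0.18 each). These comparisons share the same ESC libraries.

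**Figure D3:**
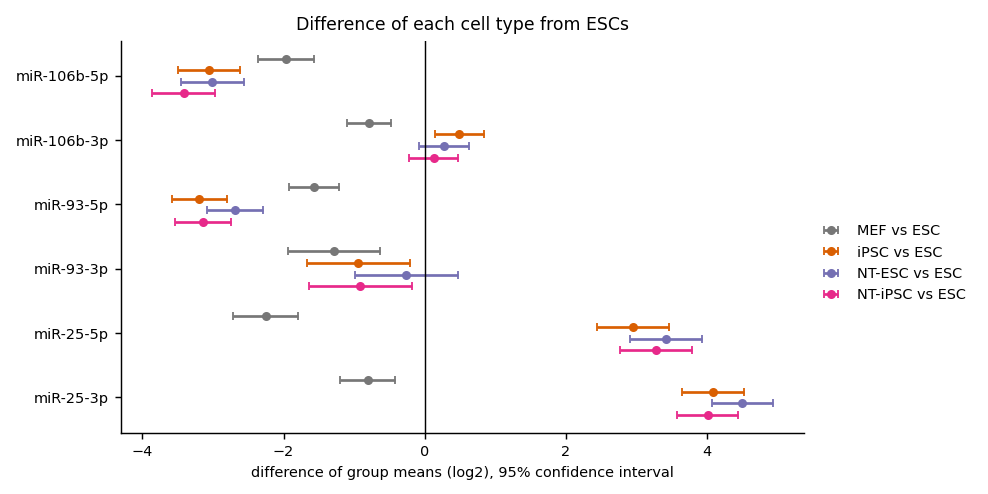
Points give the difference of group means from ESCs (x axis, log2) for each arm in MEFs and in the 3 reprogrammed types, with bars for the 95% confidence interval from limma. The miR-25 arms lie between 2.95 and 4.50 in reprogrammed cells, while miR-106b-5p and miR-93-5p lie between -3.42 and -2.69, and all 6 arms lie below 0 in MEFs.

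In MEFs the whole cluster was lower than in ESCs. All 6 arms were called lower, where 39.9% of the 732 miRNAs were called lower and 79.0% were called in either direction. Differences were -1.96 for miR-106b-5p (standard error 0.18, limma adjusted p = 1.4e-06), -1.56 for miR-93-5p (standard error 0.16, adjusted p = 3.7e-06) and -0.81 for miR-25-3p (standard error 0.18, adjusted p = 0.0014). The lesser arms differed by -0.78 (miR-106b-3p), -1.29 (miR-93-3p) and -2.25 (miR-25-5p). The size of these differences depended on the scaling, which moved the median of all miRNAs in this comparison by -0.88 (total reads) to 0.63 (upper quartile) on the log2 scale. With upper quartile scaling, under which 31.6% of all miRNAs were called lower, 3 arms kept the call, and miR-106b-3p, miR-25-3p and miR-93-3p did not (-0.15, -0.17 and -0.67, adjusted p = 0.32, 0.38 and 0.053). With total reads the leading arms differed by -2.85 (miR-106b-5p), -2.45 (miR-93-5p) and -1.70 (miR-25-3p). The same scalings moved the median between reprogrammed cells and ESCs by -0.16 to 0.21, and between reprogrammed cells and MEFs by -0.42 to 0.99.

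Against MEFs, from which they were derived, the reprogrammed cells had 4 arms higher and 2 lower, beside 88.9% of all miRNAs called (48.5% higher, 40.4% lower). The 4 were both arms of miR-25, miR-106b-3p (1.08 higher, standard error 0.12, limma adjusted p = 5.5e-06, and 0.66 to 2.09 under the other scalings) and miR-93-3p (0.59, adjusted p = 0.049). The miR-93-3p call was lost under upper quartile scaling, voom, no filter and the fit to only the groups compared, and without any 1 of the MEF libraries or of iPSC replicate 63, NT-ESC replicates 71 and 72 and NT-iPSC replicate 51 (adjusted p = 0.054 to 0.52). With TMM-type scaling and with total reads it passed at 0.92 and 1.56 (adjusted p = 0.0041 and 0.00010). On the deposited scale its libraries overlapped those of MEFs, and on the CPM scale they did not.

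Ratios within a library do not depend on how libraries were scaled. They compare reads, and how efficiently each sequence was captured was not measured. miR-25 reads, with both arms summed, were fewer than those of miR-106b in ESCs (log2 ratio -1.75 ± 0.288, SD, n = 3) and MEFs (-0.84 ± 0.0499, SD, n = 3). They exceeded them in reprogrammed cells (4.90 ± 0.280, SD, n = 6), a mean ratio of 29.9-fold. Against miR-93 the log2 ratio was -3.46 ± 0.266 in ESCs, -2.86 ± 0.0344 in MEFs and 3.62 ± 0.249 in reprogrammed cells. The reprogrammed cells thus differed from ESCs by 6.66 for miR-25 over miR-106b and by 7.09 for miR-25 over miR-93, with no overlap. Each had p = 0.012 in the two-sided exact permutation test, the smallest that 84 arrangements allow, and 0.026 adjusted over the 24 tests of this kind. Against MEFs they differed by 5.75 and 6.48 (exact permutation p = 0.012 and adjusted p = 0.026 for both). MEFs and ESCs did not overlap in either ratio, but 3 libraries against 3 cannot give an exact p below 0.10. Set against the 9 other libraries together, MEFs overlapped them in both ratios (exact permutation p = 0.18 for each). ESCs lay below and reprogrammed cells above MEFs in both, so the overlap followed from the pooling, and this test cannot show whether MEFs differ.

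The balance of the 2 arms also shifted. For miR-106b the 5p arm had 19.1 times the reads of the 3p arm in ESCs (log2 4.26 ± 0.107, SD, n = 3), 8.45 times in MEFs (3.08 ± 0.348, SD, n = 3) and 1.74 times in reprogrammed cells (0.80 ± 0.165, SD, n = 6). The drop from ESCs to reprogrammed cells was -3.46, with no overlap (two-sided exact permutation p = 0.012, adjusted p = 0.026). For miR-93 the 5p arm led by a log2 ratio of 10.9 ± 0.301 in ESCs, 10.7 ± 0.438 in MEFs and 8.66 ± 0.401 in reprogrammed cells, a difference of -2.29 from ESCs (exact permutation p = 0.012, adjusted p = 0.026). Its 3p arm rests on few reads. For miR-25 the 3p arm led in every library, by 5.23-fold in ESCs, 14.3-fold in MEFs and 10.3-fold in reprogrammed cells. The log2 ratio of 5p over 3p differed by -0.98 between reprogrammed cells and ESCs (exact permutation p = 0.012, adjusted p = 0.026). Between reprogrammed cells and MEFs it differed by 0.47 (exact permutation p = 0.083, adjusted p = 0.13), and between MEFs and the 9 other libraries by -0.79 (exact permutation p = 0.041, adjusted p = 0.082), neither of which passed after adjustment. MEFs against the 9 others gave 1.13 for miR-106b and 1.26 for miR-93 (exact permutation p = 0.24 and 0.15). For miR-106b MEFs lay between reprogrammed cells and ESCs, so their overlap with the pooled libraries followed from the pooling. The arm ratios of miR-106b and miR-25 did not overlap between MEFs and ESCs (differences -1.18 and -1.45, exact permutation p = 0.10 each), while that of miR-93 did (-0.27, exact permutation p = 0.40).

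**Figure D4:**
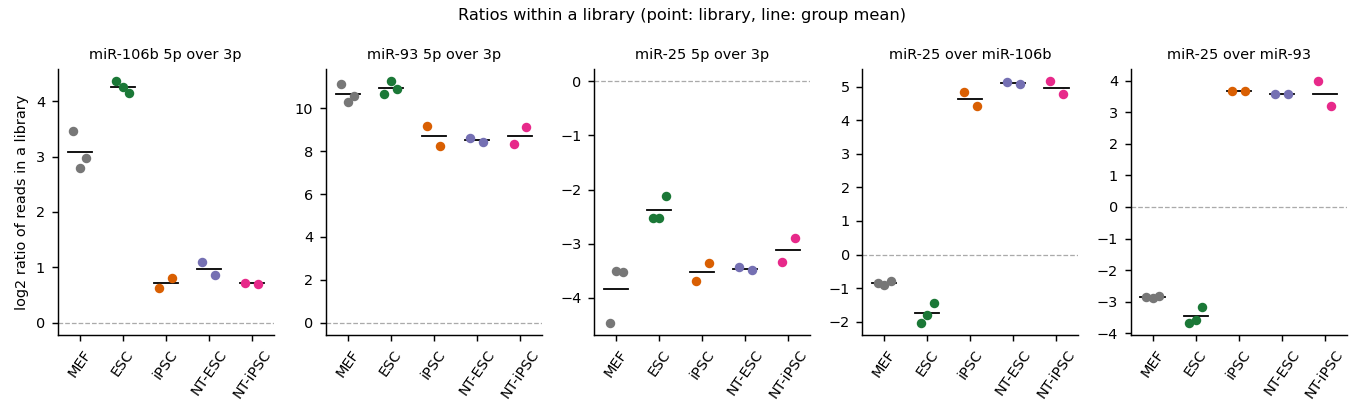
Points give the log2 ratio of reads within a library (y axis, a separate range for each panel, dashed line at 0) for the 2 arms of each hairpin and for miR-25 over miR-106b and over miR-93, by cell type, with a line for the group mean. The miR-25 ratios are below 0 in MEFs and ESCs and above 3 in every reprogrammed library, and the miR-106b arm ratio is lowest in reprogrammed cells.

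Summed over its 6 arms, the cluster took 2.46% ± 0.0885 (SD, n = 3) of all miRNA reads in ESCs and 0.446% ± 0.0448 (SD, n = 3) in MEFs. NT-ESCs gave it 3.82% ± 0.101, iPSCs 3.69% ± 0.150 and NT-iPSCs 2.48% ± 0.326 (SD, n = 2 each). For MEFs the difference from the 9 other libraries was -2.59 percentage points (two-sided exact permutation p = 0.0045, the smallest that 220 arrangements allow, adjusted p = 0.026). Reprogrammed cells exceeded MEFs by 2.88 points (exact permutation p = 0.012, adjusted p = 0.026). They overlapped ESCs, with a difference of 0.874 points (exact permutation p = 0.11, adjusted p = 0.14), and without NT-iPSC replicate 52 this was 1.09 points (exact permutation p = 0.018).

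Among the reprogrammed types themselves, 0 of the 6 arms passed the limma test in any of 3 comparisons on the deposited scale. At an unadjusted p under 0.05, miR-93-5p differed between NT-ESCs and iPSCs (0.51, 95% confidence interval 0.07 to 0.94, adjusted p = 0.082), and miR-25-3p and miR-93-5p between NT-iPSCs and NT-ESCs (-0.49 and -0.45, adjusted p = 0.16 and 0.15). The share of all miRNAs that passed was 25.7% for NT-ESCs against iPSCs, 26.5% for NT-iPSCs against iPSCs and 12.8% for NT-iPSCs against NT-ESCs. Intervals for miR-25-3p ran from -0.06 to 0.89 in the first of these, from -0.55 to 0.40 in the second and from -0.97 to -0.01 in the third, so that differences of up to about 1 on the log2 scale remain possible. With total miRNA reads as library size, 1, 4 and 3 arms were called in these comparisons, each as lower in the type named first. They were miR-106b-3p in NT-ESCs against iPSCs, all but miR-25-5p and miR-93-3p in NT-iPSCs against iPSCs, and miR-106b-5p, miR-93-5p and miR-25-3p in NT-iPSCs against NT-ESCs. Under that scaling 23.6%, 31.3% and 10.4% of all miRNAs were called lower, and it moved the median of all miRNAs by -0.36, -0.54 and -0.18 on the log2 scale.

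The seeds of the cluster occur in other miRNAs of the table, which are shown to set the leading arms beside their seed relatives. Whether the 2 seed families differ was not tested. The seed of miR-106b-5p and miR-93-5p also occurs in 4 miRNAs of the paralogous clusters, and that of miR-25-3p in 5 others.
miR-17-5p: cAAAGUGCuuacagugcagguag
miR-20a-5p: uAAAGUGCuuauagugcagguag
miR-20b-5p: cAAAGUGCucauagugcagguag
miR-106a-5p: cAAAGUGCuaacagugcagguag
miR-92a-3p: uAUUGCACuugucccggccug
miR-92b-3p: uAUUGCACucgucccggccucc
miR-363-3p: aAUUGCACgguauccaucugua
miR-367-3p: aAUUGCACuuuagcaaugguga
miR-32-5p: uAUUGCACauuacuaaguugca

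All 4 relatives with the miR-17 seed were below their ESC level in reprogrammed cells, as were miR-106b-5p and miR-93-5p. Of all miRNAs 38.0% were called lower in that comparison. Differences of the 4 relatives ran from -4.88 (miR-20a-5p) to -3.14 (miR-106a-5p), with a median of -3.45 beside 0.24 over all miRNAs. miR-17-5p, for example, measured 5442, 5971 and 5885 CPM in ESCs and 362.6 to 776.1 CPM in the reprogrammed libraries (difference -3.52, standard error 0.11, limma adjusted p = 1.3e-10). All 4 were also lower in MEFs than in ESCs, as were 39.9% of all miRNAs. There the differences were -0.996 for miR-17-5p and -1.20 for miR-20a-5p of the miR-17 to miR-92a cluster (limma adjusted p = 2.9e-05 and 0.00050), beside -1.96 and -1.56 for miR-106b-5p and miR-93-5p, and -8.30 for miR-20b-5p and -8.10 for miR-106a-5p of the X-linked cluster. All 4 were higher in NT-ESCs than in iPSCs (0.71 to 1.02, limma adjusted p = 0.0027 to 0.0265), as were 12.6% of all miRNAs. With total miRNA reads as library size, an alternative chosen after seeing the data, miR-20b-5p passed (0.58, adjusted p = 0.041) and the other 3 did not (0.35 to 0.66, adjusted p = 0.071 to 0.15), and on the CPM scale miR-20a-5p overlapped between the 2 types (197 and 461 in iPSCs, 427 and 483 in NT-ESCs). In that comparison miR-106b-5p and miR-93-5p had 0.05 and 0.51 and did not pass. The difference between relatives and members was not tested.

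In reprogrammed cells the miR-25 seed family held differences of both directions. miR-92a-3p and miR-92b-3p were higher than in ESCs, by 3.09 (standard error 0.17, limma adjusted p = 9.5e-09) and 3.70 (standard error 0.17, adjusted p = 2.5e-09), next to 4.20 for miR-25-3p. miR-92a-3p measured 1563 to 1662 CPM in ESCs and 9822 to 24897 CPM in reprogrammed cells, and miR-92b-3p 76.8 to 87.8 and 956 to 1444 CPM. miR-32-5p was lower (-2.13, standard error 0.15, adjusted p = 9.4e-08). miR-363-3p and miR-367-3p did not pass the test (-0.26 and -0.40, adjusted p = 0.12 and 0.19). Of all miRNAs 44.0% were higher and 38.0% lower in that comparison, so a mix of directions is near the background. Grouped after the result was known, the 3 that were higher had GC contents of up to 63.6%. These did not overlap the 31.8% to 40.9% of the other 3. In the Mcm7 cluster miR-25-5p and miR-93-3p have the same GC content (59.1%) and differed by 3.22 and -0.70. There miR-93-5p (52.2%) had -3.01, miR-106b-5p (42.9%) had -3.16 and miR-106b-3p (63.6%) had 0.30. Whether GC content bears on the direction in this family was not tested. Over the 549 tested miRNAs with a RefSeq sequence, GC content and the difference between reprogrammed cells and ESCs had a Pearson's r of 0.072, given as a description across miRNAs of the same libraries. All 5 relatives were lower in MEFs than in ESCs (-7.95 to -0.96), as were 39.9% of all miRNAs, in a comparison whose median moved by -0.88 to 0.63 with the scaling, and miR-367-3p had 0 reads in every MEF library.

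**Figure D5:**
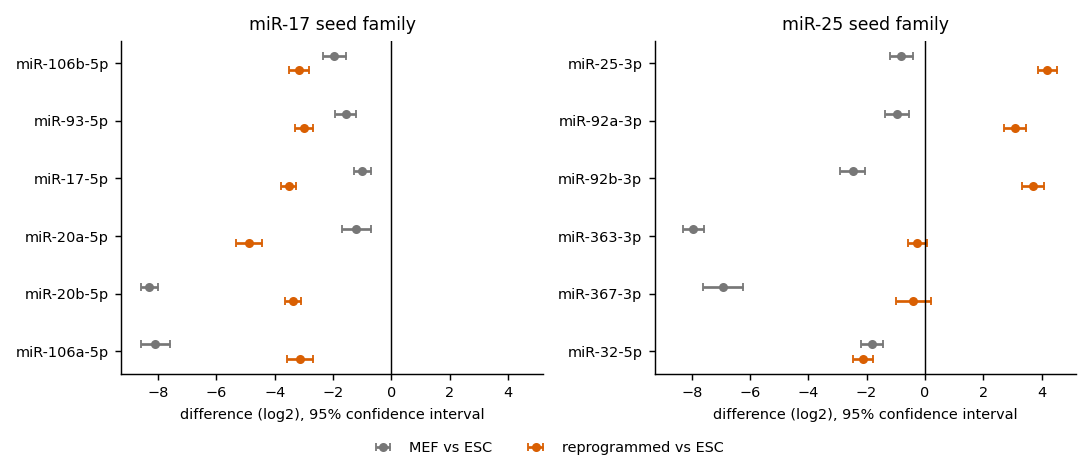
Points give the log2 difference from ESCs (x axis, with 95% confidence intervals from limma) of MEFs and of reprogrammed cells for the 6 miRNAs with the miR-17 seed and the 6 with the miR-25 seed, members of the Mcm7 cluster first. All miR-17 seed miRNAs lie below 0 in both comparisons, while miR-25-3p, miR-92a-3p and miR-92b-3p lie above 3 in reprogrammed cells.

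The paralogous clusters held arms of both directions. Of 12 arms of the miR-17 to miR-92a cluster, 3 were higher and 9 lower in reprogrammed cells than in ESCs (differences -4.88 to 3.29). Of 10 arms of the miR-106a to miR-363 cluster, 5 were higher, 4 lower and 1 did not pass (-4.79 to 5.91). Of all miRNAs 44.0% were higher and 38.0% lower in that comparison. In MEFs 9 of the 12 and 10 of the 10 were lower than in ESCs, where 39.9% of all miRNAs were, with medians of -1.03 and -7.88, beside -1.43 for the Mcm7 cluster and 0.00 over all miRNAs. Across the 549 miRNAs with a sequence, the median difference between reprogrammed cells and ESCs was -0.41 for 265 5p arms and 0.11 for 264 3p arms. By the last base of the mature sequence it was -1.05 for G, -0.14 for C, -0.02 for A and 0.80 for U. In the Mcm7 cluster both arms of miR-93 end in G (-3.01 and -0.70), miR-106b-3p and miR-25-5p in C (0.30 and 3.22), miR-25-3p in A (4.20) and miR-106b-5p in U (-3.16).

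The log2 values of the arms were also compared over the 12 libraries. Pearson's r was 0.98 between miR-106b-5p and miR-93-5p and 0.97 between the arms of miR-25, but -0.75 and -0.81 between miR-25-3p and those 2 miRNAs. miR-106b-3p ran closer to miR-25-3p (0.80) and miR-25-5p (0.89) than to its own 5p arm (-0.27). miR-93-3p had 0.43 with its own 5p arm, 0.51 with miR-106b-5p, 0.50 with miR-106b-3p, 0.25 with miR-25-5p and 0.07 with miR-25-3p. These values describe 12 libraries of 5 cell types, so the points share the differences between cell types. Apart from each other, miR-106b-5p was most like miR-183-5p (0.98) and miR-330-5p (0.97), and miR-93-5p most like miR-425-5p and miR-450b-5p (0.97 each). For miR-25-3p the nearest were miR-128-3p (0.996) and, with values identical to one another, miR-297c-3p and miR-297b-3p (0.993).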

How the data were processed

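Small RNA of 18 to 30 nt was sequenced from 12 samples. According to the methods of the study, reads were cleaned and annotated before counting. The authors then normalized miRNA reads with DESeq and stabilized their variance. The deposited values are on a log2 scale. The aligner, the miRBase release and the DESeq version are not given in the sources used here.

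The transformation was inverted for each library, which gave whole reads (within 0.05 read) for 100% of nonzero values (at most 0.00358 read off). Reads served for filters, CPM, ratios and other scalings. Libraries of the same type were not duplicates of each other (chi-square per degree of freedom 46.4 to 350).

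Differences were tested with limma 3.58.1 under R 4.3.3, applied to the deposited values of all 12 libraries with 1 mean per group and a trended prior. Benjamini-Hochberg adjustment, at 0.05, covered 732 miRNAs that reached 10 reads in 2 or more libraries. The mean of the 3 reprogrammed types weighted each type equally. Ratios (log2 of reads plus 0.5) and shares were compared with two-sided exact permutation tests over libraries, adjusted over 24 tests. The code was tested on simulated data. RefSeq sequences matched 804 of 1042 names, and hairpins were placed with RefSeq and GENCODE. Python 3.11.15, numpy 2.4.6, pandas 2.3.3 and matplotlib 3.10.9 were used.

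The arms, the relatives by seed or paralogous cluster and the markers were named by list. For the leading arm of each hairpin, the 3 miRNAs past the filter with the highest Pearson's r were named. The arms were matched by name, but the choice of this cluster and of the lists was made with earlier results of these data known. Count models were not run on the recovered reads, to which voom was applied instead. Alternatives covered 3 other scalings, voom, log2 with a pseudocount of 1, other filters, a difference of at least 1, fits to only the groups compared, and leaving out each library.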

Additional observations from a re-analysis of the deposited data

How the results depend on the processing

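No paired analysis was possible because no number is carried by replicates of 2 groups. The direction and call of miR-25-3p, miR-25-5p, miR-93-5p and miR-106b-5p between reprogrammed cells and ESCs held under the 3 other scalings, voom, the pseudocount, both filters, the fit to only the groups compared and each left-out library, with miR-25-3p between 4.04 and 4.42 under the scalings. A left-out library can leave a type with 1 library, which is then assumed to vary like the others. Calls of miR-106b-3p and miR-93-3p were the ones most often lost. Upper quartile scaling lowered the arms called between MEFs and ESCs from 6 to 3. Total reads as library size gave 1 called arm for NT-ESCs against iPSCs, 4 for NT-iPSCs against iPSCs and 3 for NT-iPSCs against NT-ESCs, where 0 were called, and leaving out libraries gave 0 to 1 for the first. The causes were not tested.

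The differences whose sign turned had not passed the test on the deposited values. These were miR-106b-3p in NT-iPSCs against ESCs (-0.068, TMM-type), miR-106b-5p in NT-ESCs against iPSCs (-0.32, total reads; -0.25 to 0.34 over left-out libraries) and, in NT-iPSCs against iPSCs, miR-93-3p (-0.0055, TMM-type) and miR-25-3p (0.0043, upper quartile). With total reads, miR-25-5p, miR-93-5p and miR-93-3p turned to -0.21, -0.49 and -0.51 in NT-iPSCs against iPSCs, and of these the miR-93-5p value passed (adjusted p = 0.035). Over left-out libraries, miR-93-5p ran from -0.15 to 0.26, miR-93-3p from -0.47 to 0.53 and miR-25-3p from -0.28 to 0.13 there, and miR-106b-3p from -0.32 to 0.026 in NT-iPSCs against NT-ESCs. The miR-25 arm ratio of MEFs against the 9 other libraries was -0.77 with a pseudocount of 5 reads (exact permutation p = 0.055), and -0.96 to -0.48 over left-out libraries. Against MEFs the reprogrammed cells gave 0.15 (without MEF replicate 13) to 0.63 for that ratio, which had p = 0.018 in the exact permutation test without iPSC replicate 62 (0.53), and their cluster share exceeded that of ESCs by 0.761 to 1.09 points.

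Calls over all miRNAs between NT-iPSCs and NT-ESCs numbered 94, but 172 with voom, 55 without a filter, 47 with only the groups compared and 8 to 43 over left-out libraries. Same-seed relatives called between NT-ESCs and iPSCs numbered 6, but 2 with total reads as library size, a setting added after seeing the data. Between NT-ESCs and iPSCs 188 fell to as few as 104 over left-out libraries, and between NT-iPSCs and iPSCs 194 fell to 107 with only the groups compared. Each type was 1 line with 2 or 3 libraries, and miR-93-3p rested on 13 to 53 reads per library. Whether depth limited its calls was not tested.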
